A study of Mus musculus with 6 samples.

Results

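Complex I (NADH:ubiquinone oxidoreductase) is the entry point of the mitochondrial respiratory chain, and most of its subunits are encoded by nuclear genes whose symbols start with Nduf. The genes described here were chosen by symbol alone: protein-coding genes of GENCODE vM21 whose symbol starts with Ndufa, Ndufb, Ndufab, Ndufc, Ndufs, Ndufv or Ndufaf followed by a number. The rule found 46 of the 46983 genes in the files, of which 38 carry a subunit symbol and 8 an assembly factor symbol (Ndufaf). Of these, 37 subunit genes and all 8 assembly factor genes had enough reads to be tested.

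Total RNA, after removal of ribosomal RNA, came from naive CD4 T cells of male mice, sorted from lymph nodes as live TCRb+ CD4+ CD62L+ CD44- cells. The 4 Cmtr1 cKO libraries came from Cmtr1 fl/fl mice with CD4cre, a transgene that drives Cre from Cd4 regulatory sequences, so that floxed alleles recombine in developing T cells. The 2 control libraries came from Cmtr1 fl/fl mice without CD4cre, so both groups carry the floxed alleles. The labels give no age and name no individual mice, so the error behind each p-value is the spread of these libraries, which may be technical.

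CMTR1 methylates the ribose of the first nucleotide transcribed next to the mRNA cap. Complex I is shaped like an L: a peripheral arm in the matrix takes electrons from NADH (the N module) and passes them through iron-sulfur clusters to ubiquinone (the Q module), and a membrane arm pumps protons. A set of core subunits carries the chemistry, accessory subunits surround them, and assembly factors help to build the enzyme without staying in it. In T cells the enzyme oxidises the NADH made by the citric acid cycle, and respiration supports the long life of naive cells.

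Gene counts per library ran from 9513874 to 11949838. Cmtr1 cKO 3 stood apart in its strandedness, with 5.57 times as many gene reads on the gene's strand as on the other, against 18.7 to 22.7 times in the other 5 libraries. Cd4 and the other 9 markers of naive CD4 T cells were all detected. Their summed level was 5824 to 6961 CPM (read counts scaled for library size, with TMM factors) in Cmtr1 cKO and 6277 to 6410 CPM in control libraries. Summed markers of NK cells were at 2.43 to 3.87 CPM in Cmtr1 cKO and 8.74 to 10.1 CPM in controls. This difference lay mainly in Klrd1, at 1.69 to 2.58 CPM in Cmtr1 cKO and 7.77 to 8.39 CPM in controls. Gzma, Ncr1 and Klrb1c overlapped between the groups. Summed markers of CD8 T cells were at 17.0 to 21.3 CPM in Cmtr1 cKO and 23.6 to 28.7 CPM in controls. For B cells the range was 19.3 to 40.5 CPM in Cmtr1 cKO and 30.1 to 40.3 CPM in controls, and for regulatory T cells 118.8 to 163.1 CPM in Cmtr1 cKO and 104.0 to 152.8 CPM in controls. For myeloid cells it was 3.01 to 4.55 CPM in Cmtr1 cKO and 4.27 to 16.9 CPM in controls, and for erythroid cells 0.635 to 2.59 CPM in Cmtr1 cKO and 1.92 to 3.79 CPM in controls. Of these 34 markers only 2 of 5 for myeloid cells, 2 of 4 for NK cells and 1 of 4 for erythroid cells had enough reads to be tested. All markers of the other cell types were tested. Among the tested markers Ccr7 and Klrd1 were called lower. No marker was at 0 in every library, and the part of other cells in the results below was not tested. Cmtr1 itself (chromosome 17) had 16, 19.8, 14.6 and 7.57 CPM in Cmtr1 cKO 1 to 4, against 11.2 and 11.4 CPM in controls 1 and 2. Its groups overlapped, and the log2 difference was 0.36 ± 0.31 (SE, adjusted p = 0.461 by edgeR). Without Cmtr1 cKO 4, the library with the least Cmtr1, it was 0.58 and called higher (adjusted p = 0.0081 by edgeR), and without Cmtr1 cKO 2 it was 0.17. The sources used here do not name the floxed exon, so the gene's count cannot check the labels. Directions in what follows go by the genotype on each library's label.

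The log2 fold changes (Cmtr1 cKO over control) of nuclear complex I genes ran from -0.54 (Ndufa1) to 0.45 (Ndufaf5), and few genes passed the test. By edgeR's quasi-likelihood test, with p-values adjusted over all genes by Benjamini-Hochberg and a threshold of 0.05, 4 of the 37 tested subunit genes (10.8%) were lower in Cmtr1 cKO cells and 0 were higher. Over all genes tested 6.77% of genes were called lower and 4.66% higher, so the members' share called lower was near that of all genes. At an unadjusted p under 0.05, 8 subunit genes were lower and 1 was higher, where 15.7% of all genes were lower and 15.1% higher. DESeq2 also called 4 lower and 0 higher. None of the 8 assembly factor genes was called by edgeR or by DESeq2, and at an unadjusted p under 0.05 edgeR had 0 lower and 2 higher. The median log2 fold change was -0.071 for subunit genes and 0.099 for assembly factor genes, against -0.00047 over all 12748 genes tested. Without Cmtr1 cKO 4 these medians were -0.14 and 0.013, and without control 2 the subunit median was -0.026. Over the fits that left out 1 library each, the subunit median lay between -0.14 and -0.026. The difference between subunit and assembly factor genes was not tested. In bulk RNA, fewer cells of a type and less RNA per cell cannot be told apart.

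**Figure D1:**
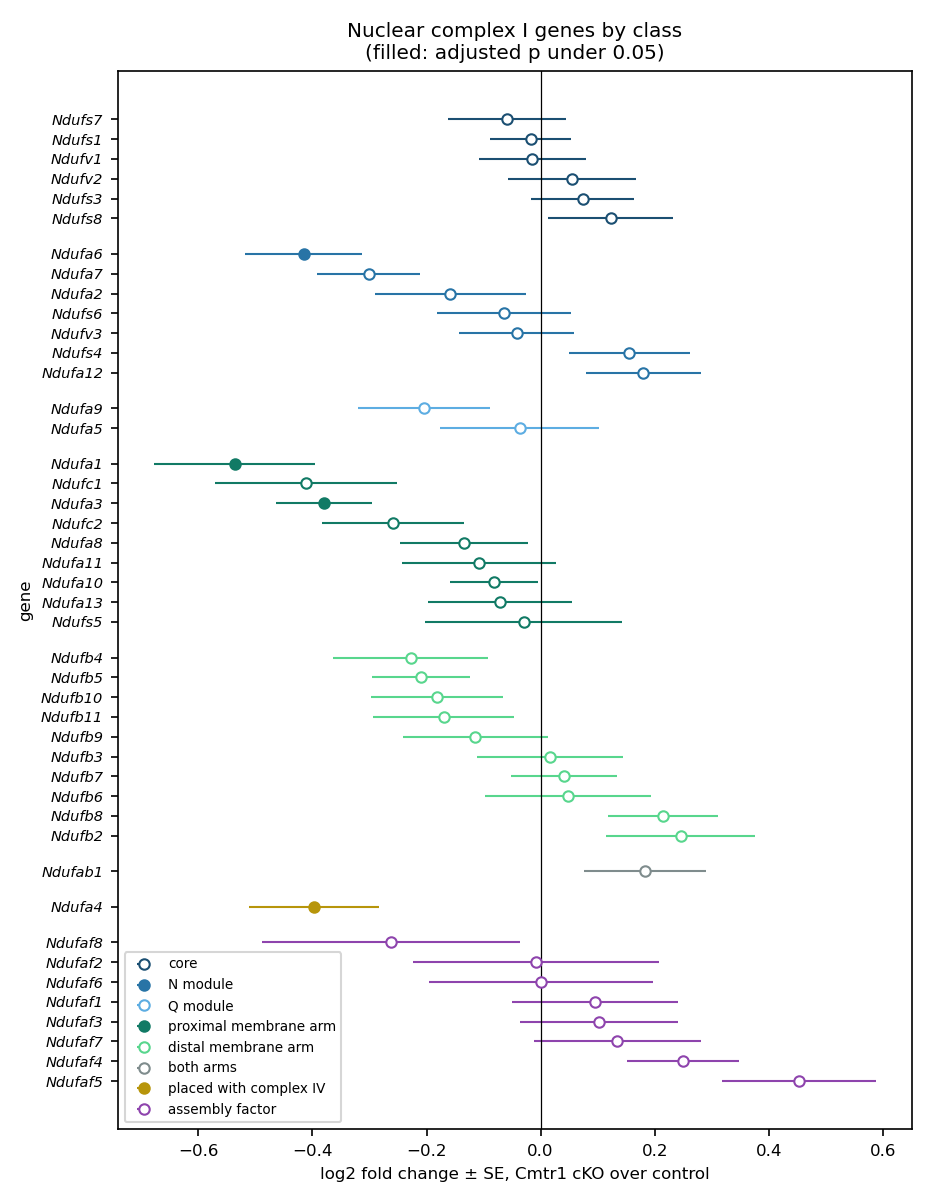
Log2 fold change (Cmtr1 cKO over control, x axis) of 44 of the 45 tested genes, grouped by class, with bars of 1 standard error (SE); filled points have an edgeR adjusted p under 0.05. In this fit, with genotype as the only term, all 9 genes of the proximal membrane arm lie left of 0, and 6 of the 8 assembly factor genes lie right of it.

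The 4 subunit genes that fell were Ndufa1, Ndufa3, Ndufa6 and Ndufa4. Each encodes a small protein, and none is a core subunit. Ndufa1 (ENSMUSG00000016427, chromosome X, 37187588 to 37191163, minus strand, GRCm38) encodes a membrane-spanning subunit near the joint of the arms that is needed for assembly. Its level was 10.9, 11.8, 14.3 and 14.2 CPM in Cmtr1 cKO 1 to 4, against 19.6 and 17.5 CPM in controls 1 and 2. Every Cmtr1 cKO library lay below both controls, on 118 to 165 reads in Cmtr1 cKO libraries and 180 to 224 in controls. The log2 fold change was -0.54 ± 0.14 (SE, n = 4 and 2, edgeR adjusted p = 0.034).

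Ndufa3 (ENSMUSG00000035674, chromosome 7, 3617373 to 3620327, plus strand) encodes another small subunit of the proximal membrane arm. It had 31.3, 32.4, 34.2 and 34.6 CPM in Cmtr1 cKO 1 to 4, against 42.8 and 43.4 CPM in the controls. The groups were tight and did not overlap. The log2 fold change was -0.38 ± 0.08 (SE, edgeR adjusted p = 0.0175), the lowest adjusted p among the 45 tested genes with an Nduf symbol.

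Ndufa6 (ENSMUSG00000022450, chromosome 15, 82350140 to 82354322, minus strand) encodes a subunit of the peripheral arm that belongs to the LYR family and binds an acyl carrier protein. It had 40.0, 38.7, 47.9 and 47.5 CPM in Cmtr1 cKO 1 to 4, against 55.9 and 60.2 CPM in the controls. Cmtr1 cKO 3 and 4 stood nearer to the controls than Cmtr1 cKO 1 and 2, and the groups did not overlap. The log2 fold change was -0.42 ± 0.10 (SE, edgeR adjusted p = 0.027).

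Ndufa4 (ENSMUSG00000029632, chromosome 6, 11900292 to 11907497, minus strand) bears a complex I symbol, but its protein is now placed with cytochrome c oxidase, complex IV. It had 31.5, 33.8, 34.9 and 42.5 CPM in Cmtr1 cKO 1 to 4, against 45.4 and 48.8 CPM in the controls. Cmtr1 cKO 4 lay closest to the controls. The log2 fold change was -0.40 ± 0.11 (SE, edgeR adjusted p = 0.0441). Without Ndufa4, 3 of 36 tested subunit genes (8.33%) were lower.

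All 4 calls ended when either control was left out. They also ended with the non-exonic share of reads (described with the libraries, further on) in the model, where the log2 fold changes were -0.32 (Ndufa1), -0.28 (Ndufa3), -0.19 (Ndufa6) and -0.088 (Ndufa4). Without Cmtr1 cKO 1 or 2 Ndufa3 alone stayed called and without Cmtr1 cKO 3 Ndufa6 alone, while without Cmtr1 cKO 4 all 4 stayed called. These calls thus depend on the libraries in the fit. So did those of all genes, with 1457 called, and 744, 663, 606 and 3880 without Cmtr1 cKO 1, 2, 3 and 4. A fit without a control keeps 1 control, so a call lost there cannot be laid to that library. Log2 fold changes without control 1 and control 2 were -0.44 and -0.60 (Ndufa1) and -0.38 and -0.36 (Ndufa3). They were -0.46 and -0.35 for Ndufa6, and -0.44 and -0.33 for Ndufa4. On unstranded counts Ndufa4 was not called (edgeR adjusted p = 0.0571).

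**Figure D2:**
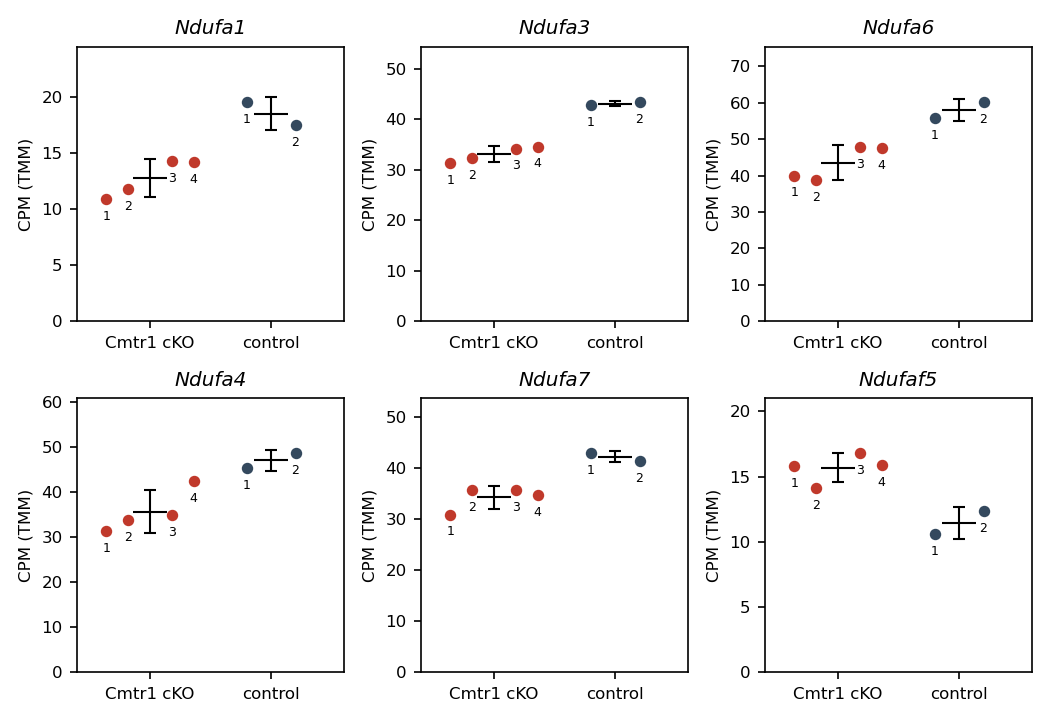
CPM with TMM scaling (y axis, from 0) in each library for the 4 genes called lower, for Ndufa7 and for Ndufaf5; points are libraries with their replicate number, and the long dash with bars is the mean ± SD (n = 4 and 2). In each panel the Cmtr1 cKO libraries lie on 1 side of both controls.

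The start regions of these genes are shown because CMTR1 acts on the first transcribed nucleotide and because these genes moved in the same direction. Each line below gives, from RefSeq on GRCm38.p6, 80 bases before the annotated start and 20 bases from it, 5′ to 3′ on the gene's strand, with the annotated start base in capitals. Ndufaf5, the assembly factor gene nearest to the threshold, is added.
Ndufa1 (chrX:37191219-37191318, minus): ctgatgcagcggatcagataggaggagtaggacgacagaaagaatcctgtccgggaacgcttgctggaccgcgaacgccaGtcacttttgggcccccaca
Ndufa3 (chr7:3617293-3617392, plus): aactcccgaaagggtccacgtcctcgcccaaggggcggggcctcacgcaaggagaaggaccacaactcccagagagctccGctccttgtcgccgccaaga
Ndufa4 (chr6:11907431-11907530, minus): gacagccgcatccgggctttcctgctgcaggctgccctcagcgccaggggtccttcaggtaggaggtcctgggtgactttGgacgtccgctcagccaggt
Ndufa6 (chr15:82354272-82354371, minus): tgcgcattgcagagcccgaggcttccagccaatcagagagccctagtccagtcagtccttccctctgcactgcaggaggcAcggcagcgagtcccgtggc
Ndufaf5 (chr2:140170566-140170665, plus): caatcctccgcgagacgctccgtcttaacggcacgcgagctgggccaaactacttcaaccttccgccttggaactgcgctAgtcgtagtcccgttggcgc

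The start base was G or A in all 5 windows. RefSeq and the principal transcript of GENCODE place the start at the same base for Ndufa3, 3 bases apart for Ndufaf5, 31 for Ndufa6, 33 for Ndufa4 and 75 for Ndufa1, so the start base is an annotation and not a measurement. GC content of the windows was 58% (Ndufa1) to 66.0% (Ndufa4). RefSeq starts were found for 40 members. A pyrimidine (C or T) stood at the start in 15.2% of 33 subunit genes and 28.6% of 7 assembly factor genes, against 29.4% of 27025 genes in the table.

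Motifs of factors that are known to act at promoters of respiratory chain genes were searched on both strands in the RefSeq windows of 300 bases around the start. The ETS and YY1 motifs can overlap in the letters AAG, and Ndufaf8 held both. The YY1 motif AAGATGGC was in 8 of 40 members (20%, against 3.19% of all genes), Ndufa3 among them. The ETS motif CCGGAAG, bound by the GABP factor, was in 6 members (15.0%, against 9.93%), and the NRF1 motif CGCATGCG in 4 members (10%, against 2.07%), Ndufa8, Ndufa11, Ndufaf4 and Ndufaf5. Among the 4 genes called lower, Ndufa3 alone held any of these motifs.

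The core subunits, which bind the flavin and the iron-sulfur clusters or ubiquinone, had 0 of 7 nuclear genes called in the fit with all 6 libraries. These genes had a median log2 fold change of -0.014, and DESeq2 called 0 of them. Ndufs1, the large iron-sulfur subunit, was at 93.5 ± 4.3 CPM in Cmtr1 cKO and 94.6 ± 0.7 CPM in controls (SD, n = 4 and 2). The groups overlapped. Ndufv1, which binds NADH and flavin, was at 54.1 ± 4.9 CPM in Cmtr1 cKO and 54.6 ± 2.7 CPM in controls, with log2 fold changes of -0.017 (Ndufs1) and -0.014 (Ndufv1). The iron-sulfur subunit genes Ndufv2, Ndufs7 and Ndufs8 had log2 fold changes of 0.055, -0.058 and 0.12, and Ndufs3 had 0.074.

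Among the 7 accessory genes of the N module 1 was lower, Ndufa6 (14.3%, against 6.77% of all genes), and 0 were higher (against 4.66%). Their median log2 fold change was -0.064. Ndufa7 was just outside the threshold, at 30.9, 35.7, 35.8 and 34.8 CPM in Cmtr1 cKO 1 to 4, against 43.0 and 41.5 CPM in the controls. The groups did not overlap, and the log2 fold change was -0.30 ± 0.09 (SE, edgeR adjusted p = 0.0514). Ndufa2, high for its length, was at 22.7 ± 3.3 CPM in Cmtr1 cKO and 25.3 ± 1.1 CPM in controls (SD), with a log2 fold change of -0.16. Ndufs4, whose loss in mice gives a model of Leigh syndrome, had 0.16 and Ndufa12 had 0.18, while Ndufs6 and Ndufv3, of the same end of the arm, had -0.064 and -0.042. Both accessory genes counted with the Q module were uncalled, Ndufa5 at -0.037 and Ndufa9 at -0.20. Ndufa9 had 41.1, 41.4, 41.0 and 54.1 CPM in Cmtr1 cKO 1 to 4, against 50.9 and 51.7 CPM in the controls, so that Cmtr1 cKO 4 lay above both controls and the others below them. Without Cmtr1 cKO 4 the gene was called lower at -0.31 (edgeR adjusted p = 0.00581).

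With genotype as the only term, the 9 genes of the proximal membrane arm all had a log2 fold change below 0. These ran from -0.54 to -0.030 with a median of -0.13. Ndufa1 and Ndufa3 were called lower (2 of 9, 22.2%, against 6.77% of all genes). With the non-exonic share in the model Ndufa1, Ndufa3 and Ndufc1 (-0.16) stayed below 0. Ndufa13 (0.31), Ndufa11 (0.23), Ndufs5 (0.10), Ndufa8 (0.064), Ndufa10 (0.030) and Ndufc2 (0.0017) lay above it. In Cmtr1 cKO 4 the median log2 ratio of this arm to the mean of the controls was -0.0086, with 3 genes above both controls. Ndufc1 had 8.05, 9.70, 8.36 and 11.0 CPM in Cmtr1 cKO 1 to 4, against 12.2 and 12.5 CPM in the controls. Its groups did not overlap, but its SE was larger than those of the called genes (-0.41 ± 0.16, edgeR adjusted p = 0.11). Ndufc2 had a log2 fold change of -0.26, Ndufa8 -0.13, Ndufa11 -0.11, Ndufa10 -0.081 and Ndufs5 -0.030. Ndufa13, also known as Grim-19, was at 64.6, 66.0, 74.6 and 90.1 CPM in Cmtr1 cKO 1 to 4, against 72.4 and 82.9 CPM in the controls. Its groups overlapped fully and its log2 fold change was -0.071 ± 0.13 (SE).

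Of the 10 genes of the distal membrane arm 0 were called, with 5 log2 fold changes below 0 and 5 above, a median of -0.049, and 1 gene each lower and higher at an unadjusted p under 0.05 (against 15.7% and 15.1% of all genes). DESeq2 called 0 of them. Ndufb4 (-0.23), Ndufb5 (-0.21), Ndufb10 (-0.18), Ndufb11 (-0.17) and Ndufb9 (-0.11) lay on the lower side. Ndufb3 (0.017), Ndufb7 (0.041), Ndufb6 (0.048), Ndufb8 (0.21) and Ndufb2 (0.25) lay on the other. Ndufb2 had the largest change in size of this arm, at 13.2, 14.5, 14.5 and 15.2 CPM in Cmtr1 cKO 1 to 4, against 12.9 and 11.4 CPM in the controls. Its groups did not overlap, and its edgeR adjusted p was 0.224. Ndufb11 was at 39.8 ± 4.9 CPM in Cmtr1 cKO and 44.8 ± 7.0 CPM in controls (SD). Ndufab1, the acyl carrier protein that sits in both arms, had a log2 fold change of 0.18.

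Groups that did not overlap were counted too. The Cmtr1 cKO libraries lay below both controls for 9 of 37 subunit genes (24.3%, against 20.8% of all genes) and above both for 3 (8.11%, against 18.2%). For assembly factor genes these counts were 0 and 2 of 8. Ndufa4l2, a relative of Ndufa4 known as a hypoxia-induced gene, had 0 reads in every library and was not tested. A count of 0 allows up to 3 reads per library by counting error.

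Processed pseudogenes with stretches at least 97% identical over 75 bases were found for 5 members (Ndufa12, Ndufab1, Ndufb4, Ndufs3 and Ndufs5), and 3 others (Ndufb2, Ndufb8 and Ndufb9) share up to 19.5% of their exon bases with another gene on their strand. Their uniquely mapped counts are uncertain. None of the 4 genes called lower is among them.

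The assembly factors act at different steps, and none of their genes was called. Ndufaf5, an enzyme that hydroxylates an arginine of NDUFS7 early in assembly, had 15.8, 14.1, 16.8 and 15.9 CPM in Cmtr1 cKO 1 to 4, against 10.6 and 12.3 CPM in the controls. Every Cmtr1 cKO library lay above both controls, on 156 to 185 reads in Cmtr1 cKO libraries and 121 to 127 in controls. The log2 fold change was 0.45 ± 0.13 (SE, edgeR adjusted p = 0.0506), and the gene was called higher with RLE or upper-quartile scaling, without a filter, on protein-coding genes alone and without Cmtr1 cKO 4, at 0.45 to 0.48. It was not called by DESeq2 (adjusted p = 0.101). By edgeR it was also uncalled on unstranded counts, with the non-exonic share in the model and with the length and GC correction. Nor was it called without Cmtr1 cKO 1, 2 or 3 (edgeR adjusted p = 0.0984, 0.0654 and 0.112). Without control 1 and control 2 its log2 fold changes were 0.35 and 0.58. Ndufaf4, which acts early in assembly with Ndufaf3, had 26.1, 25.8, 26.3 and 27.7 CPM in Cmtr1 cKO 1 to 4, against 23.3 and 21.3 CPM in the controls. Its groups did not overlap either, at 0.25 ± 0.10 (SE, edgeR adjusted p = 0.113).

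Ndufaf1, a part of the MCIA complex that builds the membrane arm, had 16.3, 16.1, 15.9 and 21.3 CPM in Cmtr1 cKO 1 to 4, against 17.1 and 15.4 CPM in the controls, so that Cmtr1 cKO 4 stood apart above the rest. Ndufaf8, a partner of Ndufaf5, had 6.39, 6.26, 7.09 and 10.8 CPM in Cmtr1 cKO 1 to 4, against 9.97 and 8.35 CPM in the controls. Again Cmtr1 cKO 4 was the high library, and without it the gene was called lower at -0.48 (edgeR adjusted p = 0.0467), against -0.26 with all libraries. Ndufaf7, a protein arginine methyltransferase of the matrix, had a log2 fold change of 0.13 and Ndufaf3 had 0.10. Ndufaf6 had 0.00093. Ndufaf2, a relative of the subunit gene Ndufa12, had -0.0087 ± 0.22 (SE) on 35 to 42 reads per library, the fewest of the assembly factor genes.

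Assembly factors that bear other symbols were read from a list of 12 genes. Of 11 tested, 1 was higher (against 4.66% of all genes) and 0 lower (against 6.77%), with a median log2 fold change of 0.046. The gene that rose was Foxred1, a flavoprotein needed for complex I assembly, at 34.9, 34.9, 34.6 and 32.3 CPM in Cmtr1 cKO 1 to 4, against 25.8 and 23.8 CPM in the controls. Its 4 Cmtr1 cKO values were within 3 CPM of each other and above both controls, and the log2 fold change was 0.46 ± 0.09 (SE, edgeR adjusted p = 0.0116). The call ended when either control was left out and with the non-exonic share in the model (0.36, edgeR adjusted p = 0.0961). Ecsit, a partner of Ndufaf1 in the MCIA complex, had 0.33 ± 0.10 (SE, edgeR adjusted p = 0.0553). On the other side Tmem70 and Lyrm2 each had -0.28, with every Cmtr1 cKO library below both controls, and were not called. In this list the Cmtr1 cKO libraries lay above both controls for 3 genes (27.3%, against 18.2% of all genes). They lay below both for 2 (18.2%, against 20.8%).

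The mitochondrially encoded subunits form the core of the membrane arm. Of 5 tested, 3 were lower (60%, against 6.77% of all genes) and 0 higher (against 4.66%). The lower genes were mt-Nd1 (-0.66 ± 0.12), mt-Nd2 (-0.85 ± 0.14) and mt-Nd4 (-0.59 ± 0.14, SE). Not called were mt-Nd5 (-0.63 ± 0.30, edgeR adjusted p = 0.231) and mt-Nd6 (-0.26 ± 0.14, SE, edgeR adjusted p = 0.225). mt-Nd1 was at 901.4, 872.8, 1029 and 1140 CPM in Cmtr1 cKO 1 to 4, against 1580 and 1542 CPM in the controls. Thus the nuclear core genes and the mitochondrially encoded ones had medians of -0.014 and -0.63, the latter being the value of the uncalled mt-Nd5. The difference between these lists was not tested. The calls of mt-Nd2 and mt-Nd4 ended with the non-exonic share in the model, at -0.51 and -0.24, and with the length and GC correction, at -1.15 and -0.88. All 3 ended when either control was left out, and mt-Nd4 also without Cmtr1 cKO 1.

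Complex II, which feeds ubiquinone in parallel, had 0 of 8 genes called by edgeR (1 lower and 0 higher at an unadjusted p under 0.05, against 15.7% and 15.1% of all genes), with a median of -0.15. The matrix enzymes that supply NADH had 0 of 12 called (4 lower and 0 higher at an unadjusted p under 0.05, against the same shares of all genes), with a median of -0.066. Among 11 tested regulators of mitochondrial gene expression 1 was called higher (against 4.66% of all genes) and 0 lower (against 6.77%). At an unadjusted p under 0.05, 2 were lower and 2 higher, against 15.7% and 15.1% of all genes. The gene called higher was Tfb2m, a factor for transcription of mitochondrial DNA. It had 17.1, 18.1, 19.4 and 15.0 CPM in Cmtr1 cKO 1 to 4, against 12.7 and 12.2 CPM in the controls (0.48 ± 0.14, SE, edgeR adjusted p = 0.0435). The call of Tfb2m ended in DESeq2 (adjusted p = 0.0687), on unstranded counts, with the non-exonic share in the model and in every fit that left out a library other than Cmtr1 cKO 4.

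Libraries of the same genotype differed in these genes. The sum over the 37 subunit genes was 1265, 1270, 1396 and 1480 CPM in Cmtr1 cKO 1 to 4, against 1405 and 1484 CPM in the controls. Cmtr1 cKO 1 and 2 were low, Cmtr1 cKO 3 lay just below the lower control, and Cmtr1 cKO 4 lay between the controls. The median log2 ratio of subunit genes to the mean of the controls was -0.20, -0.23, -0.084 and 0.064 in Cmtr1 cKO 1 to 4, against -0.044 and 0.043 in the controls. Among the Cmtr1 cKO libraries, number 4 was the highest for 24 of 37 subunit genes and the lowest for 0, and number 1 was the lowest for 20.

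The non-exonic share, the part of uniquely mapped reads that fell in no annotated exon on their strand, moved with these values. It was 52.3%, 51.6%, 46.7% and 38.0% in Cmtr1 cKO 1 to 4, against 37.2% and 34.0% in the controls. Reads in an exon but on its other strand can count in this share. Cmtr1 cKO 3 had relatively more of them, with a strandedness of 5.57 times against 18.7 to 22.7 times elsewhere. Its 46.7% is thus not a share of reads outside exons alone, and the part of strandedness in it was not tested. Cmtr1 cKO 4, whose share was close to that of the controls, was also the library whose subunit sum lay among theirs. With this share in the model, 36 of 37 subunit genes had a higher log2 fold change than without it and 27 lay above 0, with a median log2 fold change of 0.12. In that fit 0 subunit genes were lower and 3 were higher, Ndufs4 (0.41), Ndufv2 (0.35) and Ndufa13 (0.31), against 2.71% and 2.51% of all genes called lower and higher. The median of assembly factor genes was 0.27 there, with 0 called. Without Cmtr1 cKO 4, 9 subunit genes were lower, Ndufa7, Ndufa9, Ndufc1 and Ndufc2 among them, and 0 higher, with 15.4% of all genes called in each direction. The part of the share in these results was not tested beyond this fit, in which it is partly confounded with genotype.

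**Figure D3:**
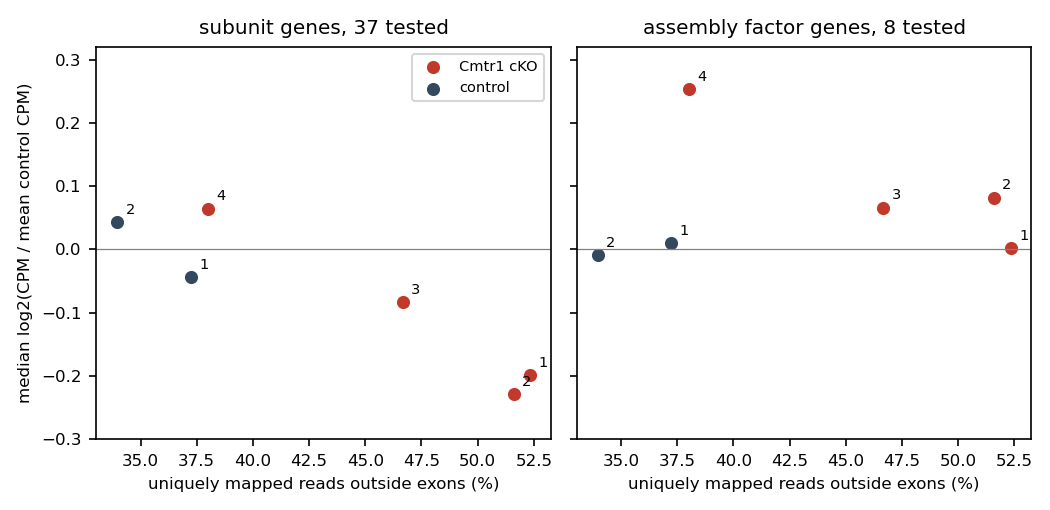
Median log2 ratio of CPM to the mean of the controls (y axis) over subunit genes (left) and assembly factor genes (right), against the non-exonic share of uniquely mapped reads in percent (x axis); each point is a library with its replicate number. Cmtr1 cKO 1 and 2 have subunit medians of -0.20 and -0.23 at shares of 52.3% and 51.6%, and Cmtr1 cKO 4 has 0.064 at 38.0%. The share can include exon reads on the other strand, which were relatively most frequent in Cmtr1 cKO 3.

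The sum over the assembly factor genes was 95.8, 97, 101.7 and 111.8 CPM in Cmtr1 cKO 1 to 4, against 92.6 and 90.7 CPM in the controls, so every Cmtr1 cKO library was above both, and Cmtr1 cKO 4 was again the highest of the Cmtr1 cKO libraries. By the median log2 ratio to the mean of the controls, Cmtr1 cKO 1 (0.0021) was not above control 1 (0.0093). The sum of the 4 genes called lower was 113.7, 116.7, 131.3 and 138.7 CPM in Cmtr1 cKO 1 to 4, against 163.6 and 169.9 CPM in the controls. These genes were picked by this same difference, so the gap between the groups was fixed by the choice. The sum shows the order of the libraries only.

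**Figure D4:**
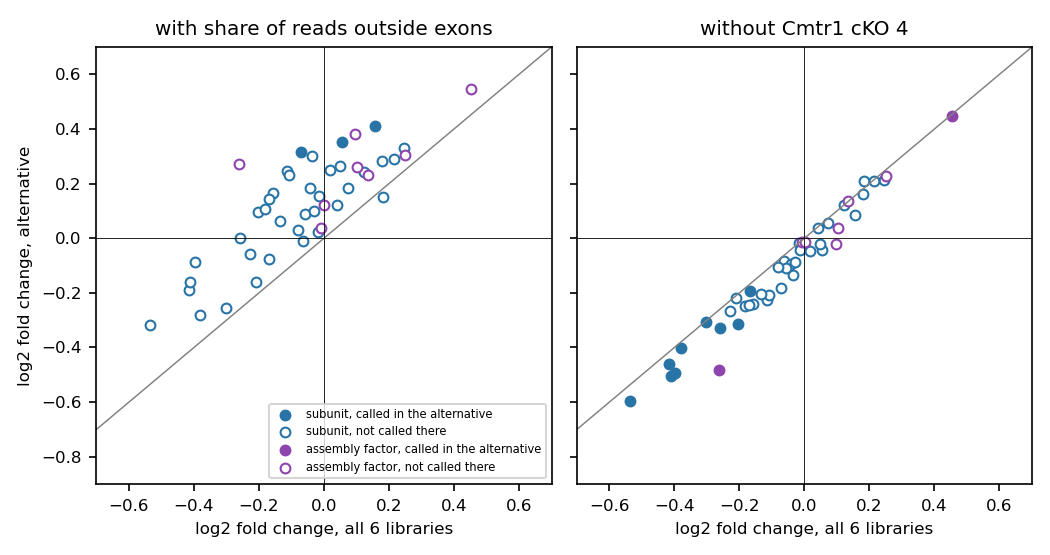
Log2 fold change of each tested gene with all 6 libraries (x axis) against that in an alternative (y axis): with the non-exonic share in the model (left) and without Cmtr1 cKO 4 (right); the diagonal marks equal values and filled points have an edgeR adjusted p under 0.05 in the alternative. On the left 36 of 37 subunit genes lie above the diagonal, and on the right 9 subunit genes are called lower.

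Levels were compared between genes per kilobase of all annotated exons of a gene. Subunit genes had a median of 20.4 CPM per kb in Cmtr1 cKO and 20.9 in controls, with ranges of 2.55 to 59.0 in Cmtr1 cKO and 2.15 to 62.1 in controls. Assembly factor genes had a median of 6.86 CPM per kb in Cmtr1 cKO and 6.05 in controls. Ndufa13 was the highest at 59.0 CPM per kb in Cmtr1 cKO and 62.1 in controls. Ndufb11 had 43.8 in Cmtr1 cKO and 49.4 in controls, and Ndufa2 39.7 in Cmtr1 cKO and 44.3 in controls. The order depends on the length used: per kilobase of the principal transcript, Ndufa6, Ndufa3, Ndufa7 and Ndufa4 led in controls, at 98.4, 83.7, 80 and 77.2 CPM per kb.

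The genes called lower also have short mRNAs. Their principal transcripts are 419 (Ndufa1), 515 (Ndufa3), 590 (Ndufa6) and 610 (Ndufa4) bases long, against medians of 908 bases for tested subunit genes, 1308.5 for assembly factor genes and 3000 for tested protein-coding genes. Across the 37 subunit genes, Spearman's rho between transcript length and log2 fold change was 0.47, and across 10521 protein-coding genes it was 0.065. Genes share libraries and are not independent replicates, so these values are descriptions. For GC content rho was -0.11 across subunit genes and -0.0083 across protein-coding genes. Ndufa7, Ndufa11, Ndufs6 and Ndufa2, with transcripts of 528, 545, 568 and 572 bases, were not called. After a correction for exon length and GC content in each library the same 4 genes were called lower. That length covers all annotated exons of a gene: 1022 bases for Ndufa3, 1381 for Ndufa4 and 1801 for Ndufa6. Only for Ndufa1, among these 4, is it the transcript length. A correction for transcript length was not tested.

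**Figure D5:**
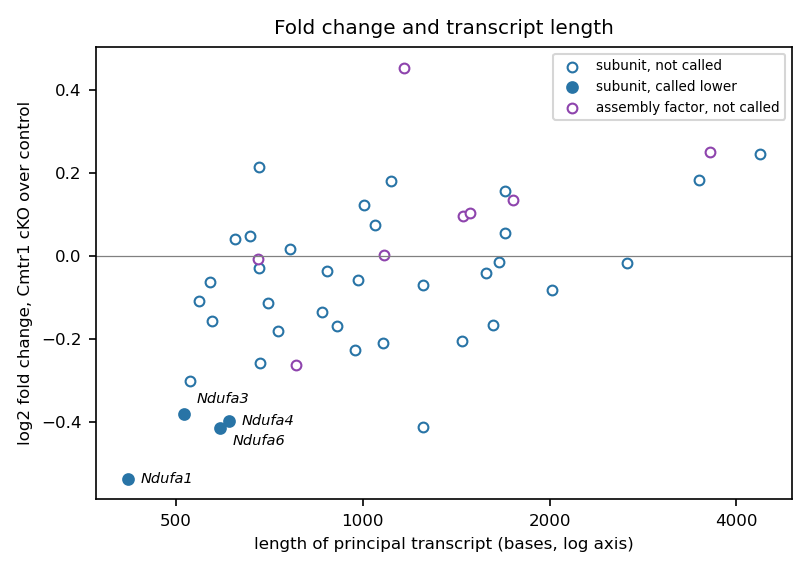
Log2 fold change (Cmtr1 cKO over control, y axis) against the length of the principal transcript in bases (x axis, log scale) for the 45 tested genes; filled points are the 4 genes called lower. The called genes have transcripts of 419 to 610 bases.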

How the data were processed

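The authors deposited 1 table of read counts per gene for each of the 6 libraries, whole numbers in the layout of STAR's gene table. Per the submitters' processing notes, the tools include STAR 2.5.2b and edgeR and the builds mm10 and GRCm38. The gene models behind the counts are not given in the sources used here. Per the labels, RNA was taken with Trizol and libraries were made with a TruSeq kit after Ribozero Gold depletion. Such counts hold reads that map to 1 place and overlap 1 gene. The stranded column with the gene's own strand was used (5.57 times the other in Cmtr1 cKO 3, 18.7 to 22.7 times elsewhere). The 4 entries that name no gene held 52.1% to 62.0% of reads and were left out.

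Gene identifiers, with the version removed, were looked up in GENCODE vM21 for GRCm38 (46488 of 46983, 98.9%). Genes passing edgeR's filterByExpr (12748) were tested with edgeR 4.0.16 in R 4.3.3 (TMM, glmQLFit robust, glmQLFTest, Benjamini-Hochberg, called at adjusted p under 0.05), with genotype as the only term. SE is the log2 fold change divided by the square root of F. CPM use TMM factors. The code was tested on simulated data. Alternatives used RLE and upper-quartile scaling, no filter, DESeq2 1.42.0, unstranded counts, protein-coding genes, the share of reads outside exons, a loess correction (span 0.3), a replicate block and each library left out. Intervals and floors (3 counts) cover counting error only.

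Members, classes and lists were chosen with earlier results of these data known. Genes named with full values are all assembly factor genes, all called members, the highest per kb of exon and the largest change in each class, the gene just outside the threshold and called genes of the other lists. Other members are named for completeness, and Ndufc1 was described after its values were seen. Ecsit, Tmem70, Lyrm2, mt-Nd5 and mt-Nd6, of the other lists, are named outside this rule. Of the list of other assembly factors Coa1 was not matched by symbol. mt-Nd3, mt-Nd4l and Ppargc1a had too few reads. A core subunit gene that is part of the totals is not reported here by itself.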

Additional observations from a re-analysis of the deposited data

Results flagged for a closer look

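In 2 of the 21 named quantities compared, 1 Cmtr1 cKO library lay far from the other 3, by a gap rule that chance meets in about 1 in 20 groups of 4. Ndufa9 had 54.1 CPM in Cmtr1 cKO 4, against 41.0 to 41.4 CPM in Cmtr1 cKO 1 to 3, a gap of 0.969 of the group's range. Ndufaf1 had 21.3 CPM in Cmtr1 cKO 4, against 15.9 to 16.3 CPM in Cmtr1 cKO 1 to 3, a gap of 0.923 of the range. In both the high library was Cmtr1 cKO 4, whose share of reads outside exons was 38.0%, and its part in these values was not tested.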

How the results depend on the processing

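The count of genes called over all genes was 1457, and it was 2272 without a filter, 666 with the non-exonic share of reads in the model and 193 to 3880 with single libraries left out. Subunit genes called lower numbered 4, and 0 with that share in the model, where 3 were higher and the medians were 0.12 for subunit and 0.27 for assembly factor genes. With single libraries left out they numbered 0 (without control 1 or control 2), 1 (without Cmtr1 cKO 1, 2 or 3) and 9 (without Cmtr1 cKO 4). For assembly factor genes these fits called 0 to 1 higher and 0 to 1 lower. With RLE or upper-quartile scaling, without a filter and on protein-coding genes alone 1 assembly factor gene, Ndufaf5, was higher. The cause of these changes was not tested.

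Several log2 fold changes that were not called with all libraries turned. With the non-exonic share in the model they were -0.65 (Cmtr1), 0.31 (Ndufa13, called), 0.17 (Ndufa2), 0.098 (Ndufa9), 0.039 (Ndufaf2), 0.27 (Ndufaf8) and 0.14 (Ndufb11). Ndufa13 and Ndufaf2 had 0.036 and 0.046 with the length and GC correction. Ndufaf2 had 0.0066 with upper-quartile scaling and 0.022 on protein-coding genes alone, and Ndufaf6 had -0.027 on unstranded counts. With single libraries left out the ranges were -0.18 to 0.042 (Ndufa13), -0.020 to 0.18 (Ndufaf1), -0.015 to 0.025 (Ndufaf2), -0.065 to 0.10 (Ndufaf6) and -0.31 to 0.010 (Ndufb11). Over the named genes and settings, 303 of 400 values kept direction and side of the threshold, 44 lost a call, 28 gained one and 25 turned.

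Whether the replicate numbers pair the libraries was not settled. Deviations of same-numbered libraries correlated at 0.125 (number 1) and -0.131 (number 2). With 2 controls the deviations from their own mean are opposite, so these values cannot decide it. A replicate block, possible for numbers 1 and 2 alone, called 4830 of 12535 genes tested, in either direction. Among these were 15 subunit genes lower, 1 assembly factor gene higher and 1 lower, with -0.0063 for Ndufaf1 and -0.074 for Ndufaf6. The same 4 libraries without the block, a fit chosen after the data were seen, called 4681 of 12535 genes. Again 15 subunit genes were lower, 1 assembly factor gene higher and 1 lower, with -0.0089 for Ndufaf1 and -0.059 for Ndufaf6. How many of all genes were called lower in these fits is not reported here. Cmtr1 cKO 1 and 2, used in both, had the highest non-exonic shares of reads, 52.3% and 51.6%. Depth limits Ndufaf2, which had 35 to 42 reads per library.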
